A study of Equus caballus with 6 samples.

Results

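IGFBP5, IGFBP6 and NOV were taken as the insulin-like growth factor (IGF)-binding and CCN genes of equine tenocytes. Their Ensembl identifiers were read from the gene tables of the study, and the 3 genes are 3 of the 26992 entries of the deposited table. The 6 libraries were polyA-enriched RNA of tenocytes of the superficial digital flexor tendon of 1 horse, a 5-year-old female, so the replicates repeat the experiment on cells of a single animal and p-values measure the spread between repeats, not between horses. In 3 libraries (Scx siRNA, written siRNA below) the cells had been transfected with a siRNA against the mRNA of scleraxis (Scx), a transcription factor of tendon, and in 3 libraries (scramble control, written scramble) with a non-targeting control siRNA. All cells were at passage 3, were plated on collagen I, and underwent cyclic strain of 1% at 0.5 Hz for 2 h a day over 3 days. The comparison asks which tenocyte genes depend on Scx under load.

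IGF-binding proteins are secreted proteins that hold IGF ligands with high affinity and so set how much ligand reaches the IGF receptor, a signal known to raise matrix synthesis and proliferation in tendon cells. IGFBP5 also attaches to extracellular matrix, and IGFBP6 is known for its preference for IGF-II. NOV (also called CCN3) is a matricellular protein of the CCN family, whose first module resembles the IGF-binding domain, and it signals mainly through integrins. The ligands IGF1 and IGF2, their receptors, the other IGF-binding proteins and the other CCN genes were not analysed here, because their identifiers were not paired with names.

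The strands of the siRNA are shown because this duplex is the treatment that defined the siRNA group. The bases in capitals in the antisense (guide) strand are positions 2 to 8, the seed.
Scx siRNA sense: agagaaaguugagcaaggatt
Scx siRNA antisense: uCCUUGCUcaacuuucucugg
The mRNA sequences of the 3 genes were not used here, so matches to this seed were not looked for.

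The table gives reads per gene divided by a size factor for each library (normalized counts), and the number of reads behind each value was recovered from it. The libraries held 6539504 to 12213421 reads counted on genes. Scx itself had 5, 7 and 25 reads in the scramble libraries and 5, 0 and 0 reads in the siRNA libraries, a log2 fold change of -2.19 (limma, adjusted p = 0.192). The first siRNA library and the first scramble library had the same number of Scx reads. So few reads measure the knockdown poorly, and the qPCR of Scx was not analysed here. Scx averaged 5.48 normalized counts, and the 608 genes averaging 5 to 10 had a median log2 fold change of -1.42. With cyclic loess normalization, by which a trend with level is flattened, the log2 fold change of Scx was -0.41 (limma, adjusted p = 0.857). Of 10 tendon markers other than Scx, 9 had reads. TNMD, which the study lists from rat and human tendon and holds to be a weaker marker in horses, was at 0 in all 6 libraries. The summed normalized counts of the 10 markers were 145924 to 148580 in scramble and 157832 to 178087 in siRNA. Most of the sum was COL1A2 (means 67899 and 69156) and DCN (means 50342 and 83572). DCN was called higher and COL1A1, COMP and TNC lower among the 9, and the median log2 fold change of the 9 was -0.78. Over all genes tested, 12.9% were called higher and 12.1% lower. Of 4 genes better known from other cell types (SELE, MYOC, TNNI3K and ACAN), all of which the tables of the study also list for tendon, the endothelial SELE was at 0 in all 6 libraries and MYOC had 1 read in all. The summed level of the 4 was 449 to 583 normalized counts in scramble and 131 to 145 in siRNA, most of it ACAN, the aggrecan gene of cartilage and tendon, which fell (log2 fold change -2.10). As tendon genes too they do not separate cell types well, and their part in the results below was not tested. The groups also differed in how many genes had any read, 13151 to 13392 in the scramble libraries and 11026 to 11183 in the siRNA libraries.

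IGFBP5 had 0, 0 and 3 reads in the siRNA libraries, against 35, 37 and 46 in scramble. IGFBP6 transcript was lower in all 3 siRNA libraries but missed the threshold, and NOV differed in 1 siRNA library only. Genes with 1 to 3 reads were fewer in the siRNA libraries in general, 78 to 164 against 1221 to 1306. The part of this in the IGFBP5 values was not tested. In bulk RNA, fewer cells expressing a gene and less of its RNA per cell cannot be told apart. A gene was called when its adjusted p was under 0.05 in limma on log2(normalized count + 1), with adjustment over the 11517 genes that had a mean of at least 5 normalized counts. All 3 genes reached that mean, IGFBP5 only through its scramble libraries (means of 31.5 normalized counts in scramble and 1.38 in siRNA). Of the 3 genes, 1 was called, IGFBP5, as lower. Over all genes tested, 25% were called, 12.1% lower and 12.9% higher, and the median log2 fold change was -0.20. The lower genes made up 48.4% of those called, and 68.4% when the libraries were scaled to total reads instead.

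**Figure D1:**
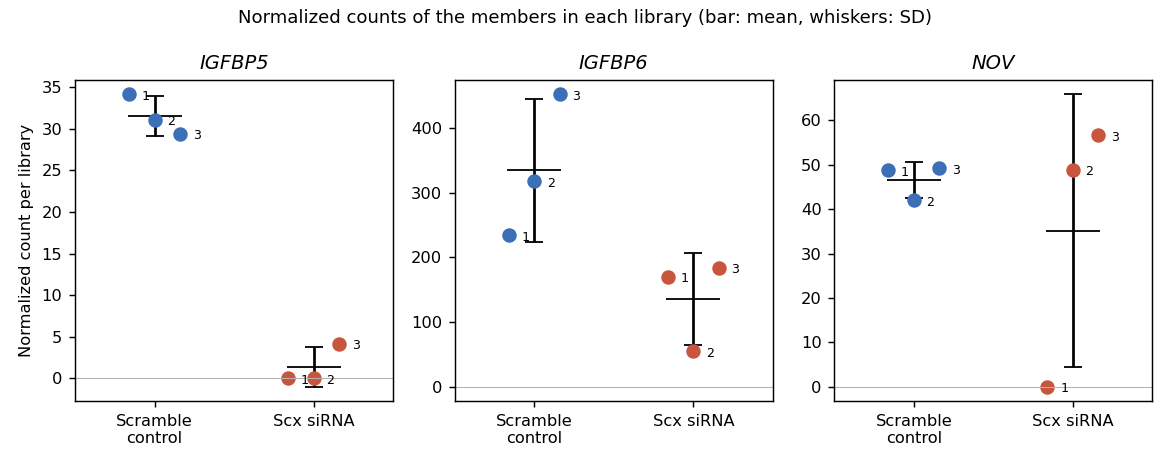
Normalized counts (y axis, linear, a separate scale for each gene) of IGFBP5, IGFBP6 and NOV in the 3 scramble libraries (blue) and the 3 siRNA libraries (red), each point 1 library with its replicate number, the bar the mean and the whiskers the SD. IGFBP5 lay at 29.4 to 34.1 in scramble and at 0 to 4.14 in siRNA. IGFBP6 was lower in siRNA without overlap, an order found for 25.8% of all genes tested. NOV was at 0 in the first siRNA library alone.

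IGFBP5 (ENSECAG00000013425) had 34.1, 31.1 and 29.4 normalized counts in the scramble libraries and 0, 0 and 4.14 in the siRNA libraries. These values rest on 35, 37 and 46 reads in scramble and on 0, 0 and 3 reads in siRNA. The scramble libraries lay close together, and every siRNA library lay below all of them, an order found for 25.8% of all genes tested, while 22.3% showed the opposite order. The means were 31.5 ± 2.40 (SD, n = 3) normalized counts in scramble and 1.38 ± 2.39 (SD, n = 3) in siRNA, which is 4.38% of the control mean. The log2 fold change was -4.23 (standard error 0.89, 95% interval -6.33 to -2.14; limma, adjusted p = 0.0162), and so IGFBP5 was also among the 6.23% of genes that were called with a log2 fold change of -1.5 or lower.

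Because the siRNA level of IGFBP5 was so low, the size of its log2 fold change depended on the pseudocount, being -4.93 with 0.5 and -2.10 with 8. Added over the libraries of each group, 118 reads of 29841072 in scramble stood against 3 reads of 24623014 in siRNA, a 32.5-fold difference per read counted with an exact 95% interval of 10.8 to 159.6 that covers counting error only, since copies made by PCR are not independent. By counting error alone, a count of 0 allows up to 0.383 reads per 1000000 counted (RPM) in the first siRNA library. In the second it allows up to 0.293 RPM. These are one-sided 95% limits (3 reads of the total), and the two-sided exact limits are higher, 0.471 and 0.360 RPM. The scramble libraries had 3.77 to 4.28 RPM. The adjusted p was 0.0933, 0.105 and 0.101 without the first, the second and the third scramble library, with log2 fold changes of -4.18, -4.24 and -4.28. Leaving out 1 of these libraries also lowered the number of genes called over the whole table, from 2882 to 878, 517 and 588 in the same order.

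Some other genes also lacked reads in single siRNA libraries. Of the 9759 genes with at least 25 normalized counts in every scramble library, 295 were at 0 in exactly 1 siRNA library, 65 (0.666%), IGFBP5 among them, were at 0 in exactly 2 and 6 were at 0 in all 3, limits that were chosen after the values were seen. Conversely, of the 8330 genes with at least 25 normalized counts in every siRNA library, 0 were at 0 in any scramble library. Genes with 1 to 3 reads numbered 78 to 164 in the siRNA libraries and 1221 to 1306 in the scramble libraries. Genes with 8 to 12 reads were in turn more numerous in the siRNA libraries, 525 to 611 against 409 to 455, and the part of this in the IGFBP5 values was not tested. The log2 fold change moved with the level of expression over all genes. The median was -1.27 in the class of IGFBP5, the 678 genes averaging 10 to 20 normalized counts, and 10% of that class lay at -3.35 or lower. The mean of 16.5 over both groups placed IGFBP5 there, although its scramble libraries had 29.4 to 34.1. Genes averaging 20 to 50 normalized counts had a median of -0.90, and 10% of them lay at -2.88 or lower. With cyclic loess normalization, by which such a trend is flattened, the median of the class of IGFBP5 was -0.07 and IGFBP5 had a log2 fold change of -2.81 (limma, adjusted p = 0.0421).

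**Figure D2:**
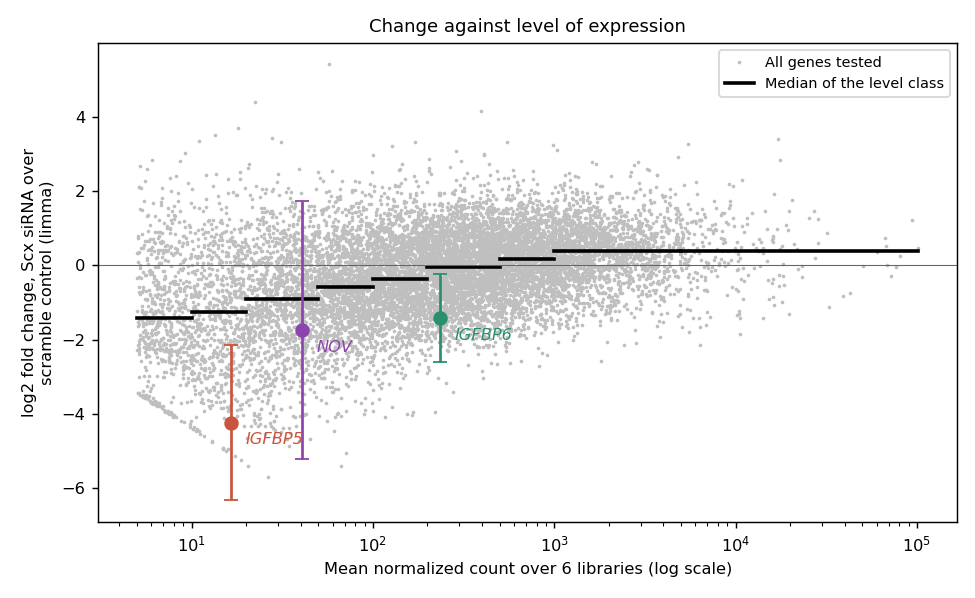
Log2 fold change from limma (y axis) against the mean normalized count over the 6 libraries (x axis, log scale) for the 11517 genes tested (grey), with the median of each level class (black lines) and the members with their 95% intervals. IGFBP5, at -4.23, lay below its class median of -1.27, IGFBP6, at -1.42, below its class median of -0.05, and the interval of NOV, -5.21 to 1.73, took in 0.

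IGFBP6 (ENSECAG00000019633) had 234, 317 and 452 normalized counts in the scramble libraries and 170, 54.8 and 184 in the siRNA libraries. The highest siRNA library lay below the lowest scramble library, an order found for 25.8% of all genes tested. The second siRNA library was far below the others of its group. The means were 335 ± 110 (SD, n = 3) normalized counts in scramble and 136 ± 70.8 (SD, n = 3) in siRNA, or 40.7% of the control mean. The log2 fold change was -1.42 (standard error 0.51, 95% interval -2.61 to -0.24), with an unadjusted p of 0.0248 and an adjusted p of 0.0785 from limma, so that IGFBP6 was not called. DESeq2 on the recovered reads called it, with a log2 fold change of -1.30 (adjusted p = 0.0339). So did limma without the second siRNA library, with a smaller log2 fold change of -0.87 (adjusted p = 0.0471). Both settings called more genes in general, 3757 of 11517 with DESeq2 and 4889 of 11539 without that library, against 2882 of 11517 in the main test. Its class, the 2436 genes averaging 200 to 500 normalized counts, had a median log2 fold change of -0.05, and 10% of the class lay at -1.32 or lower.

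IGFBP6 varied more between the scramble libraries than the other members did. Its exact Poisson 95% intervals, which cover counting error only, ran from 25.7 to 33.3 RPM in the first, from 36.1 to 44.3 RPM in the second and from 53.7 to 62.3 RPM in the third. The coefficient of variation of IGFBP6 normalized counts in scramble was 32.9%, against a median of 11.4% over all genes tested, while IGFBP5 was at 7.60% and NOV at 8.69%. In siRNA it was 52.0% for IGFBP6, against a median of 40.4%, and there IGFBP5, at 173%, and NOV, at 87.3%, varied more than IGFBP6. Without the third scramble library, the highest of the 6, the log2 fold change of IGFBP6 was -1.18 (limma, adjusted p = 0.258).

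NOV (ENSECAG00000023039) had 48.8, 42.0 and 49.2 normalized counts in the scramble libraries and 0, 48.8 and 56.6 in the siRNA libraries. The second and the third siRNA libraries lay within or above the range of the scramble libraries, and the first had none of 7827547 reads. By counting error alone, a count of 0 there allows up to 0.383 RPM by the one-sided limit and 0.471 RPM by the two-sided limit. The other 5 libraries had 4.78 to 6.30 RPM on 41 to 77 reads each. Neither limit covers more than counting error, and zeros in single siRNA libraries were found for other genes too. The groups overlapped, with means of 46.7 ± 4.05 (SD, n = 3) and 35.2 ± 30.7 (SD, n = 3) normalized counts. The log2 fold change was -1.74 (standard error 1.48, 95% interval -5.21 to 1.73; limma, adjusted p = 0.408), an interval so wide that it took in changes of either sign.

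The first siRNA library decided the sign of the NOV estimate. Without it the log2 fold change was 0.17 (95% interval -0.66 to 1.00; limma, adjusted p = 0.717), and with it edgeR on the recovered reads gave -0.44 (adjusted p = 0.799) and limma with a pseudocount of 8 gave -0.82 (adjusted p = 0.446). By a limit chosen after the values were seen, 8828 genes had at least 40 normalized counts in at least 2 siRNA libraries, and 76 of them (0.861%), NOV among them, were at 0 in the one left. The same held for 0 of 9385 such genes of the scramble. Of the 76 genes, 11 were at 0 in the first siRNA library, 54 in the second and 11 in the third. That first library was also at 0 for IGFBP5, and it was the only siRNA library with Scx reads.

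**Figure D3:**
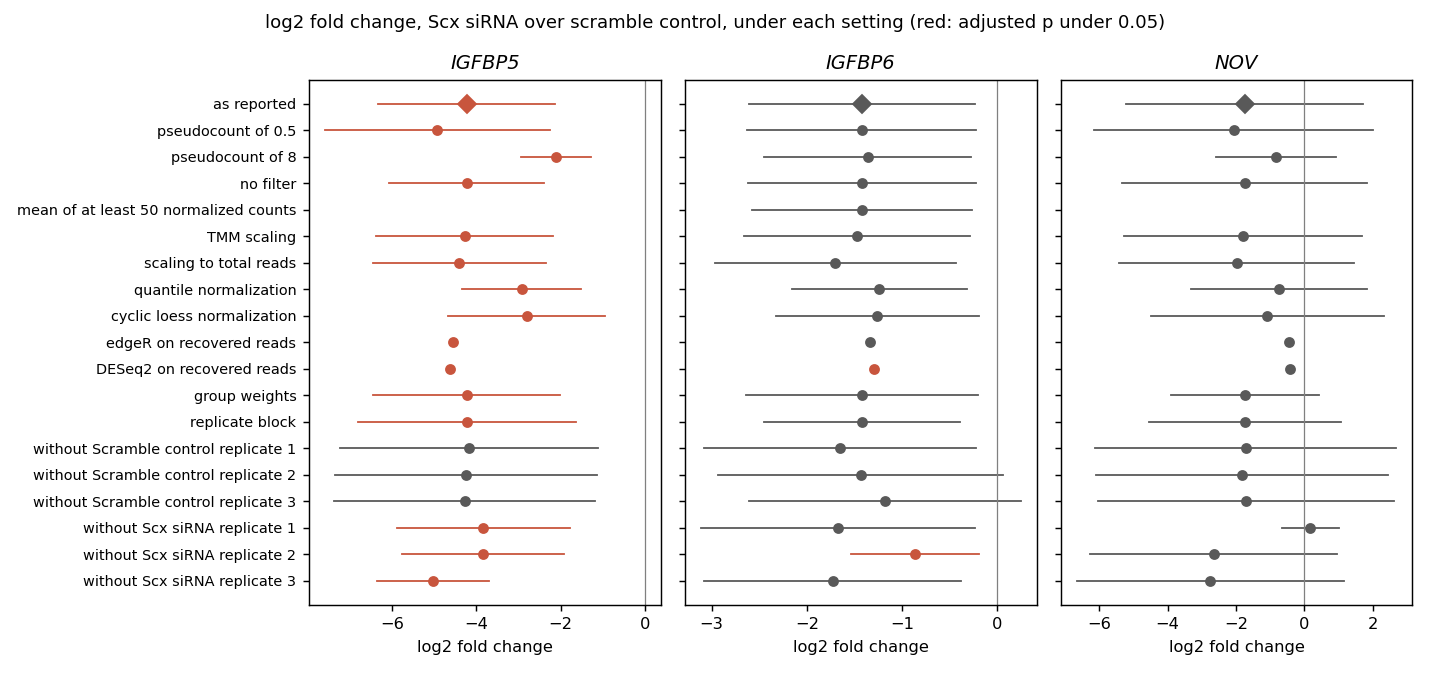
Log2 fold change of each gene, siRNA over scramble (x axis, a separate scale for each gene), as reported (diamond) and under each other setting (circles), with 95% intervals except for edgeR and DESeq2; red marks an adjusted p under 0.05, and no value is drawn where a mean of at least 50 normalized counts removed the gene. IGFBP5 stayed between -5.02 and -2.10, IGFBP6 between -1.73 and -0.87, and NOV crossed 0 without the first siRNA library.

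Apart from the pseudocount, the ratio of genes within a library does not depend on how the libraries were scaled, and a change in such a ratio between groups does not depend on gene length. For each of the 3 pairs of genes the log2 ratio of (normalized count + 1) was compared between the groups. IGFBP5 over IGFBP6 was -2.74, -3.31 and -3.90 in the scramble libraries and -7.42, -5.80 and -5.17 in the siRNA libraries. The groups did not overlap, and the log2 ratio was lower by -2.81 in siRNA (two-sided exact permutation p = 0.1, the smallest that 3 libraries against 3 allow, and 0.3 adjusted over the 3 pairs). With a pseudocount of 8 the difference was -0.74 (exact permutation p = 0.3). IGFBP5 over NOV overlapped between the groups, because both genes were at 0 in the first siRNA library, and its log2 ratio differed by -2.49 (exact permutation p = 0.4, adjusted 0.6), or by -4.01 without that library and by -1.19 without the second. IGFBP6 over NOV ranged from 2.24 to 3.17 in scramble and from 0.16 to 7.42 in siRNA, a difference of 0.32 (exact permutation p = 1) that became -1.85 without the first siRNA library, 1.78 without the second and -0.54 with a pseudocount of 8.

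**Figure D4:**
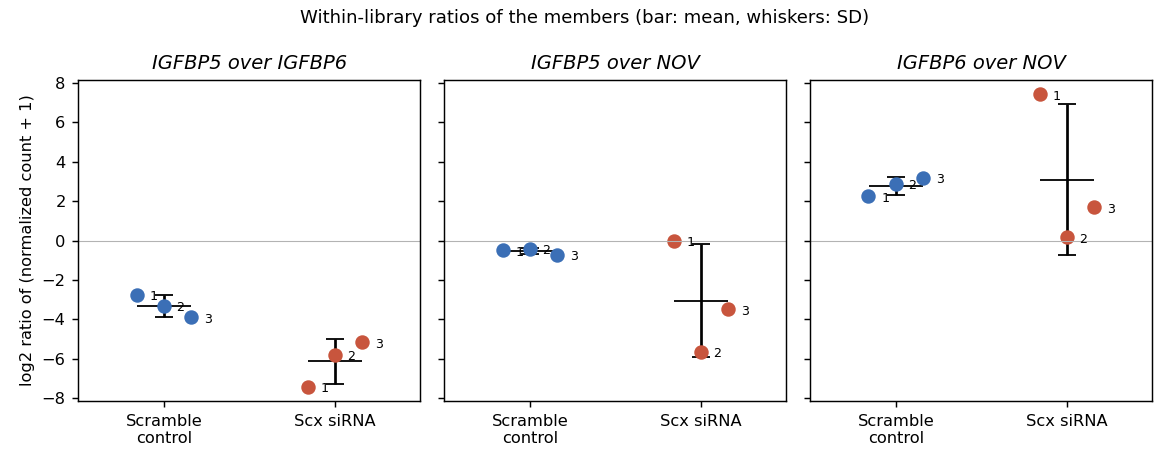
Log2 ratio of (normalized count + 1) of each pair of genes within a library (y axis) in scramble (blue) and siRNA (red), each point 1 library with its replicate number, the bar the mean and the whiskers the SD. IGFBP5 over IGFBP6 was at -3.90 or higher in every scramble library and at -5.17 or lower in every siRNA library, and the other ratios overlapped.

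Of 6 genes whose proteins cleave or bind these factors, 5 were tested, and 1 of the 5, MMP2, was called, where 25% of all genes tested were called, so the count of the list was near the background. The median log2 fold change of the 5 was -0.25, against -0.20 over all genes tested, a comparison not matched for level of expression. MMP2, a gelatinase that can degrade IGFBP5, had 13930, 13784 and 14685 normalized counts in the scramble libraries and 9236, 5243 and 9072 in the siRNA libraries. Its groups did not overlap, and every siRNA library lay below every scramble library for 25.8% of all genes tested. The log2 fold change was -0.89 (standard error 0.25; limma, adjusted p = 0.0380). The adjusted p of MMP2 was 0.0533 when every gene with a read was tested, and 0.118, 0.134 and 0.142 without the first, the second and the third scramble library.

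HTRA1, a secreted serine protease that cleaves IGFBP5, had 20678, 23280 and 30689 normalized counts in scramble and 28222, 10414 and 26653 in siRNA. Its log2 fold change was -0.31 (95% interval -1.25 to 0.64; limma, adjusted p = 0.595). FN1 and THBS1 encode fibronectin and thrombospondin 1, matrix proteins that bind IGFBP5, and FBLN1 encodes fibulin 1, which binds NOV. Their log2 fold changes were -0.03 for FN1 (95% interval -0.54 to 0.47), -0.25 for THBS1 (-0.81 to 0.31) and 0.03 for FBLN1 (-0.73 to 0.78), with adjusted p between 0.460 and 0.957 from limma. The sign for HTRA1, FN1 and FBLN1 turned when single libraries were left out, and that for FBLN1 also with cyclic loess normalization, at -0.31. MMP1, another protease of IGFBP5, had 4, 9 and 10 reads in scramble and 0, 8 and 0 in siRNA, and its mean was too low for it to be tested.

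Of 8 secreted signals of other pathways, all tested, 2 fell (TGFB3 and WNT5B), 1 rose (CCL2) and 5 were not called, beside 12.1% called lower and 12.9% called higher over all genes tested. Their median log2 fold change was -1.19, against -0.20 over all genes, a comparison not matched for level. The 8 averaged from 8.53 (SFRP2) to 2489 (TGFB3) normalized counts. Class medians over all genes ran from -1.42 at 5 to 10 normalized counts to 0.38 at 1000 to 5000. TGFB3, a ligand of the TGF-beta pathway, had 3173, 3344 and 3483 normalized counts in the scramble libraries and 1847, 1189 and 1897 in the siRNA libraries, a log2 fold change of -1.05 (limma, adjusted p = 0.0146). WNT5B, a Wnt ligand, had 128, 150 and 147 normalized counts and 23.4, 44.8 and 19.3 respectively, a log2 fold change of -2.33 (adjusted p = 0.00957). CCL2, a chemokine that attracts monocytes, rose from 869, 1270 and 1035 normalized counts to 3881, 3361 and 3824, a log2 fold change of 1.81 (adjusted p = 0.00271). No library of one group overlapped the other for these genes. Over all genes tested, 25.8% had every siRNA library below every scramble library and 22.3% had the opposite order. Only CCL2 of the called genes in both lists was still called without the first, the second or the third scramble library, while in the same order of left-out libraries the adjusted p was 0.0614, 0.0795 and 0.0804 for TGFB3 and 0.0534, 0.0719 and 0.0677 for WNT5B.

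The uncalled secreted signals included genes with a spread like that of NOV. SEMA3B, a semaphorin, had 143, 159 and 184 normalized counts in scramble and 39.4, 0 and 146 in siRNA (log2 fold change -3.16; limma, adjusted p = 0.189). FGF18, a fibroblast growth factor, had 18, 19 and 19 reads in scramble and 41, 7 and 0 in siRNA, and its log2 fold change was -1.11 with limma but 0.29 with edgeR on the recovered reads. For TGFB1 the log2 fold change was -1.27 (adjusted p = 0.118), and DKK3 and SFRP2, modulators of Wnt signalling, had -0.62 and -1.37 (adjusted p = 0.221 and 0.380), a value that for SFRP2 ran from -1.69 to 0.74 under the other settings that kept every library.

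**Figure D5:**
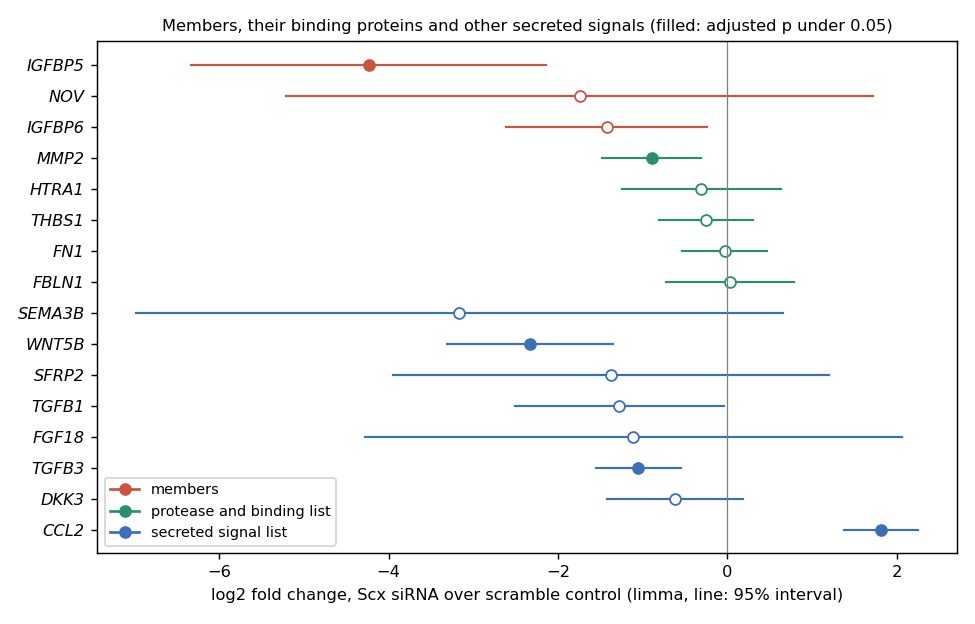
Log2 fold change from limma (x axis, siRNA over scramble, lines 95% intervals) of the members (red), of the tested genes whose proteins cleave or bind them (green) and of secreted signals of other pathways (blue); filled points have an adjusted p under 0.05. IGFBP5, MMP2, WNT5B and TGFB3 were called lower and CCL2 higher, and the intervals of NOV, SEMA3B and FGF18 were the widest drawn.

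Among the named genes, the profile over the 6 libraries nearest to that of IGFBP6 belonged to IL4RA, a receptor subunit for interleukin 4. Likeness was the root mean square difference in log2(normalized count + 1) after centring each gene on its scramble mean, over 87 tested genes that the tables of the study name, and is a description with no test. The difference from IGFBP6 was 0.22 for IL4RA, 0.33 for TGFB1 and 0.43 for ARSB, a lysosomal sulfatase. Over all 11517 genes tested, named or not, 24 were closer to IGFBP6 than IL4RA was, 326 closer to IGFBP5 than XG and 589 closer to NOV than THBS4. The nearest named genes of the other members were farther away. IGFBP5 was 1.48 from XG, 1.72 from WNT5B and 1.72 from ACAN, and NOV was 1.71 from THBS4, a thrombospondin, 1.73 from COL5A1, a chain of collagen V, and 1.76 from SEPT4, a septin. The 3 members are also in the study's list of tendon-selective genes, of which 52 of 67 were tested and 14 were called lower and 4 higher, with IGFBP5 among the 14, beside 12.1% called lower and 12.9% higher over all genes tested. The median log2 fold change of the 52 was -0.79, against -0.20 over all genes, a comparison not matched for level of expression.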

How the data were processed

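Per the authors, reads passed Trimmomatic, HISAT2 2.0.3 (genome EquCab2) and HTSeq (Ensembl genes), and DESeq2 1.12.4 then normalized the counts. The deposited values are counts divided by a size factor for each library, a signal in which depth is scaled out. The table also holds the authors' own comparison (fold changes, standard errors, test statistics and p-values), which was not used. In every library 100% of the values were whole multiples of the smallest (to within 0.001 reads), which gave the reads. For the second siRNA library this step was 0.997 normalized counts, so close to 1 that only the digits of the values tell it from rounding.

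The main test was limma 3.58.1 (R 4.3.3) on log2(normalized count + 1), over genes averaging 5 or more normalized counts (eBayes with trend, two-sided, Benjamini-Hochberg adjustment over all genes tested, no covariates). Pairs of members were compared with exact permutation tests. Alternatives were other pseudocounts, filters and scalings, edgeR 4.0.16 (quasi-likelihood) and DESeq2 1.42.0 on the recovered reads, group weights, blocking on replicate number, and leaving out each library. The fits were also run on simulated counts, with the spread of both groups taken from the scramble libraries. The wider spread and the zeros of the siRNA libraries were thus not covered. Named genes were the members, Scx, the genes of both lists (proteins that cleave or bind the members, and other secreted signals), cell type markers and, for each member, the 3 named genes with the nearest profile. SELE, MYOC, ACAN and TNNI3K, which the study lists for tendon, were taken as markers of other cell types for want of others paired with an identifier. The members, lists and tests were chosen with earlier results of these data known. Only the Scx identifier, 1 of 26992, was found in the reference table of gene names, so positions and sequences of the members were not used here.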

Additional observations from a re-analysis of the deposited data

How the results depend on the processing

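IGFBP5 kept a negative log2 fold change and an adjusted p under 0.05 in the 11 alternatives that kept every library and could test it, with log2 fold changes of -4.93 to -2.10 and adjusted p of 0.00170 to 0.0421. With 1 library left out its log2 fold change was -5.02 to -3.84, and it lost the call without any 1 scramble library. IGFBP6 kept a negative log2 fold change in all 18 alternatives. DESeq2 called it, at -1.30, and over the other 11 alternatives with every library its adjusted p was 0.0503 to 0.0883, while with 1 library left out the log2 fold change was -1.73 to -0.87 and the adjusted p 0.0471 to 0.258. NOV was not called in any alternative. With every library its adjusted p was 0.217 to 0.824, and with 1 left out its log2 fold change was -2.75 to 0.17. The difference of IGFBP6 and NOV in log2 change became -0.54 with a pseudocount of 8 and ran from -1.85 to 1.78 with 1 library left out. No value could be had for IGFBP5 and NOV when a mean of 50 normalized counts or more was required.

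Of the genes that cleave or bind the members, 0 were called when every gene with a read was tested and 0 to 1 with 1 library left out, limma being the tool for these counts. Of the secreted signals, 5 were called with a weight for each group, SEMA3B and TGFB1 in addition, and 1 to 4 with 1 library left out (CCL2 alone without any 1 scramble library). With 1 library left out, the genes called over all genes numbered 517 to 4889, the highest without the second siRNA library. Scaling to total reads moved the median log2 fold change of all genes from -0.20 to -0.48. Relative to that median IGFBP5 was at -3.92 and IGFBP6 at -1.22, against -4.03 and -1.22 with the size factors of the authors.

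With a replicate block IGFBP5 stayed called in limma (adjusted p = 0.0386), whereas IGFBP6 had an adjusted p of 0.0601 and NOV of 0.319. The log2 fold changes of -4.23, -1.42 and -1.74 were those without the block, and 2117 genes were called against 2882. Per the authors the experiment was repeated 3 times, but the labels do not say that equal numbers mark the same repeat. Deviations of libraries with the same number had correlations of -0.08, 0.02 and 0.17 across genes. Those of libraries with different numbers ran from -0.23 to 0.21. With so few libraries these values cannot exclude pairing, and the main test used no block. By counting error alone, a level under 3 reads in a library could not be told from 0 at this depth. That limit does not cover the zeros of the siRNA libraries. Of 8828 genes with at least 40 normalized counts in at least 2 siRNA libraries, 76 were at 0 in the one left, against 0 of 9385 such genes in scramble.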

Other observations

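The second siRNA library was the lowest of the siRNA libraries for IGFBP6, at 54.8 normalized counts, and also for TGFB1, at 69.8, and for SEMA3B, at 0. Of the 13 tested genes whose proteins cleave or bind the members or are other secreted signals, 9 were lowest in that library, against 38.3% of all genes tested. The lists were chosen with earlier results known, and the difference was not tested.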
